A study of Bos taurus with 22 samples.

Results

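The proteasome is the barrel-shaped protease that degrades proteins marked with ubiquitin. Its subunit genes were followed here in subcutaneous adipose tissue around first calving. Members were all probe sets whose single gene symbol in the array annotation begins with PSMA, PSMB, PSMC, PSMD, PSME or PSMF. That gave 43 probe sets of 24016 bovine probe sets, for 37 genes of 6984 genes tested. All 43 probe sets passed the filter on dim signals. The rule uses names only and no measured value, but it was set with earlier results of these data known. PSMA2, PSMA8, PSMB11, PSMD3, PSMD7, PSMD8, PSMD12 and PSME3 were not analysed here.

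The animals were Holstein heifers that calved for the first time at 24 to 28 months of age. They were raised on 1 farm and received no dietary treatment, so the design has no group other than the 2 sampling days. Dorsal subcutaneous white fat was taken from each of 11 cows 30 days before calving (prepartum) and again 14 days after it (postpartum), and each sample was hybridised to an Affymetrix bovine array. By the labels each cow is its own control, and a postpartum change joins calving, early lactation and the diet fed after calving. The titles end in 1 of 2 codes of unstated meaning, and by that code 5 cows are called array set 1 here and the other 6 array set 2.

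As background, the barrel, called the 20S core, is built of alpha rings that gate the entrance (PSMA genes) and beta rings that hold the proteolytic sites (PSMB genes). PSMB5, PSMB6 and PSMB7 carry the constitutive active sites. Interferon-gamma induces PSMB8, PSMB9 and PSMB10, which take the places of PSMB5, PSMB6 and PSMB7 in newly built particles and so form the immunoproteasome, a source of peptides for antigen presentation. The 19S regulatory particle caps the core: its ATPases (PSMC genes) unfold the substrate, and its non-ATPase subunits (PSMD genes) bind ubiquitin and remove it. PA28, an alternative cap, is made of the interferon-inducible PSME1 and PSME2. In adipose tissue the proteasome turns over metabolic enzymes and transcription factors, and immune cells of the tissue also carry the immunoproteasome.

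Signals were single-array intensities scaled by the authors. They are given as log2(signal + 7.78), and a change is postpartum minus prepartum on that log2 scale. The median bovine signal ran from 39.9 to 47.4 over the arrays. FABP4, the fatty acid carrier of adipocytes, measured 12.61 to 13.49, and adiponectin (ADIPOQ) 9.54 to 11.62, so both adipocyte transcripts were high on every array. Skeletal muscle markers (15 kept of 23 listed) stood far above their medians on some arrays: by 8.03 log2 units on the postpartum array of cow 384, by 7.25 on the prepartum array labelled cow 387, by 3.73 on the postpartum array of cow 386 and by 2.66 on the prepartum array of cow 384. The epidermal keratins KRT5 and KRT10 stood 1.41 to 3.15 above theirs on the prepartum arrays of cows 330, 331, 341 and 382. The 2 arrays labelled cow 387 also do not resemble each other as the pairs of other cows do (r = -0.09 over probe sets after subtraction of group means, against 0.18 to 0.43). Whether they are 1 animal is in doubt and was not tested. Their muscle markers differ too (7.25 prepartum and -0.13 postpartum), and the part of that difference in the low r was not tested. Beside members and classes that cow 384 moved most, the value without it is given. In bulk tissue, fewer cells of a type and less RNA per cell cannot be told apart.

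No proteasome gene was called around calving. None of the 43 member probe sets passed limma's test at an adjusted p of 0.05, against 494 of 14410 over the whole array (3.43%; 1.44% higher and 1.98% lower). By the same limma test, 4 members had an unadjusted p under 0.05 (1 higher and 3 lower), or 9.30%, where 19.8% of all probe sets did. The changes of the 37 genes ran from -0.31 (PSMD14) to 0.23 (PSMB8), with 18 above 0 and 19 below 0. Their median was -0.01 and that of all genes tested 0.01. Without cow 384, 27 of the 37 were below 0, with a median of -0.09. That cow had the highest change in many of the genes, so leaving it out lowers these values. The median size of a change, whatever its sign, was 0.09 among members and 0.12 among all genes.

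The intervals around these values are narrow. The 95% interval from the limma fit lay within 0.5 log2 units of 0 for 41 of 43 probe sets and within 1 log2 unit for all 43. The lowest bound was -0.50 (PSMD14) and the highest 0.62 (PSME4). A doubling or a halving of the mean over 11 cows thus lies outside the interval of each member.

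**Figure D1:**
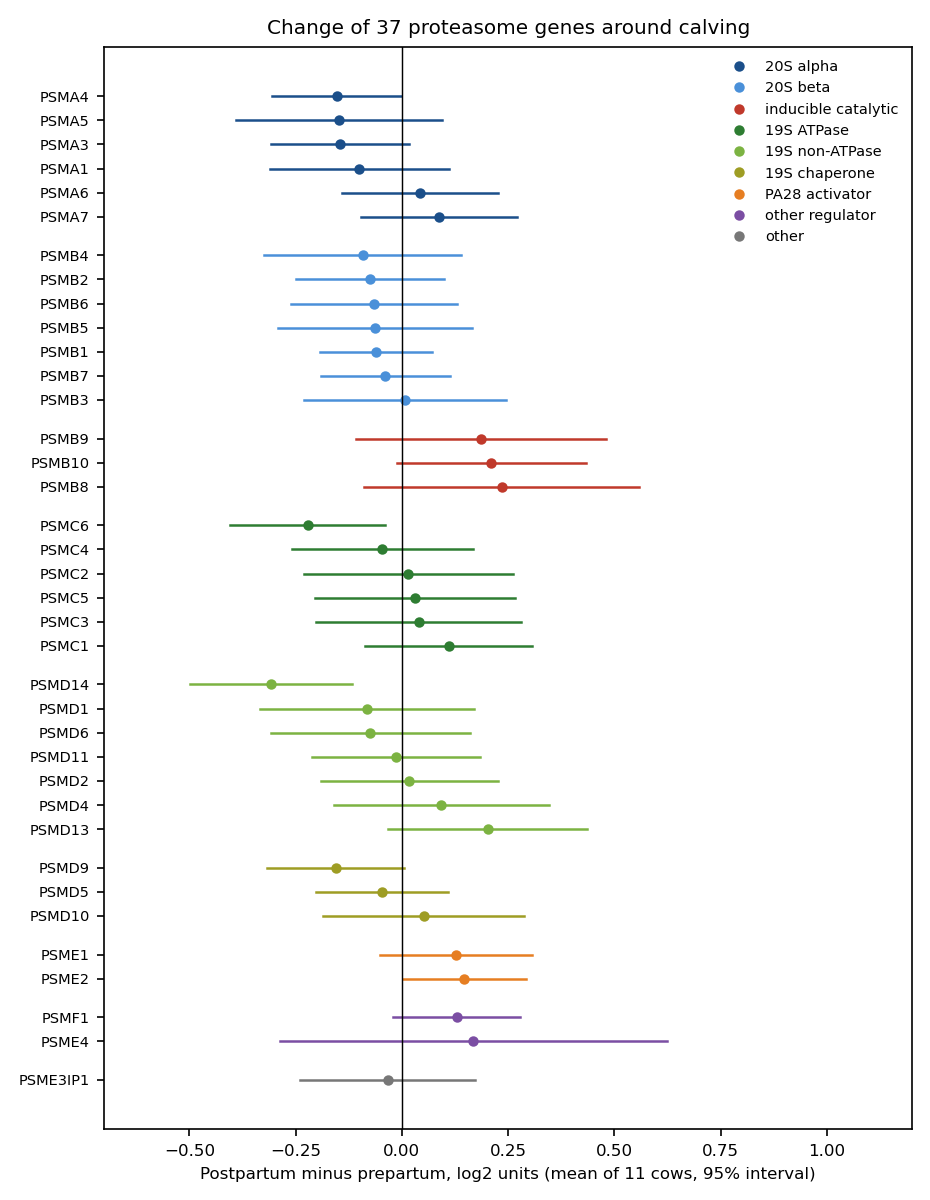
Change of each of the 37 genes, as the mean over 11 cows of postpartum minus prepartum in log2 units, with its 95% interval from the limma fit; colours mark the role of the gene. The 3 inducible catalytic genes lie at 0.19 to 0.23, whereas 10 of 13 constitutive core genes lie below 0.

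The constitutive 20S core had 13 genes, 6 alpha and 7 beta, and none was called. Of these, 10 had a change below 0 and 3 above it, with a median of -0.07. Among the alpha subunits PSMA4 had the lowest change (-0.15, SE 0.07, limma adjusted p = 0.248), and was lower in 9 of 11 cows. Its levels ran from 7.88 through a median of 8.33 to 8.65 prepartum and from 7.84 through 8.15 to 8.79 postpartum, so that the groups overlapped. PSMA5 followed at -0.15 (-0.24 without cow 384) and was also lower in 9 of 11 cows, and PSMA3 at -0.15 was lower in 10 of 11. At the other end PSMA7 had a change of 0.09 and PSMA6 of 0.04. Both rested on cow 384, without which they were 0.02 and -0.03.

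The beta subunits lay closer together, from -0.09 (PSMB4) to 0.01 (PSMB3). PSMB5, the constitutive chymotrypsin-like site, ran from 8.61 (median 9.16) to 9.42 prepartum and from 8.53 (median 9.02) to 10.35 postpartum. It was lower in 9 of 11 cows, with a mean change of -0.06 (SE 0.11, limma adjusted p = 0.79). Cow 384 had 0.96, and without that cow the mean was -0.16 (limma adjusted p = 0.12). PSMB6, the caspase-like site, had a change of -0.07 and PSMB7, the trypsin-like site, of -0.04, each lower in 7 of 11 cows; without cow 384 they had -0.14 and -0.09. In the same way PSMB4 had -0.19 and PSMB3 -0.09 without that cow. PSMB2 had a kept probe set besides the one that stands for it, and both were below 0 (-0.08 and -0.13); without cow 384 the first was -0.12.

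The 19S regulatory particle had 13 genes, 7 with a change above 0 and 6 below, with a median of 0.02 and no call. Its extremes were wider than those of the core. PSMD14, the deubiquitinase that cuts ubiquitin chains from the substrate, had the lowest change of all members. It ran from 8.50 (median 9.08) to 9.56 prepartum and from 8.52 (median 8.80) to 9.47 postpartum, a change of -0.31 (SE 0.09, 1.24-fold lower, limma adjusted p = 0.0729, lower in 9 of 11 cows). The groups overlapped, and the 2 cows in which it was higher were 384 (0.28) and 387 (0.10). The arrays with the highest muscle markers were theirs, postpartum in cow 384 and prepartum in cow 387. Muscle markers thus changed in opposite directions in these cows (5.37 and -7.38), and the part of muscle RNA was not tested. Without these 2 cows the change of PSMD14 was -0.42 and it passed the test (limma adjusted p = 0.0028, where 7.43% of all probe sets passed). Without cow 384 alone it was -0.37 (limma adjusted p = 0.0103, where 6.72% passed) and without cow 387 alone -0.35 (limma adjusted p = 0.0452, where 4.31% passed). Both cows went the other way in PSMD14, so leaving them out favours a pass, and these p-values do not support a fall.

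PSMD13, a scaffold subunit of the lid, had the highest change of the particle at 0.20 (SE 0.11, limma adjusted p = 0.33, higher in 8 of 11 cows), with its highest value, 1.01, in cow 384 and a mean of 0.12 without that cow. PSMD4, a ubiquitin receptor, had 0.09 on the probe set that stands for it and 0.21 on another, and the first was -0.02 without cow 384. PSMD6, also of the lid, was measured in opposite directions: -0.07 (higher in 3 of 11 cows) on the probe set that stands for it and 0.15 (higher in 10 of 11 cows) on another, neither of them called (limma adjusted p = 0.754 and 0.269). Without cow 384 the first was -0.18.

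Of the 6 ATPases, PSMC6 stood lowest. It ran from 8.43 (median 8.60) to 8.89 prepartum and from 7.91 (median 8.42) to 8.86 postpartum, a change of -0.22 (SE 0.09, limma adjusted p = 0.165, lower in 9 of 11 cows). The other PSMC6 probe set gave -0.09 (limma adjusted p = 0.722). Without cow 384, the cow with its highest change (0.26), the first passed (-0.27, limma adjusted p = 0.045). With arrays weighted by their fit to the model, PSMC6 (limma adjusted p = 0.0461) and PSMD14 (limma adjusted p = 0.00528) passed, where 7.47% of all probe sets did. PSMC4 had -0.05, PSMC3 0.04 and PSMC1 0.11, and PSMC2 lay at 0, with 0.02 and -0.01 on its 2 probe sets. Cow 384 carried these ATPase values: without it PSMC1 had 0.03, PSMC3 -0.05 and PSMC4 -0.14, and PSMC2 had -0.10 on the probe set that stands for it.

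Members that guide assembly of the particle or regulate the core are named like subunits. The chaperones PSMD5, PSMD9 and PSMD10 had changes of -0.05, -0.16 and 0.05, none called. PSMF1, the proteasome inhibitor PI31, had 0.13 (SE 0.07, limma adjusted p = 0.33). PSME4, the activator PA200, had 0.17 with the widest spread of all members (SD 0.82, n = 11 cows), from -0.95 in cow 387 to 2.36 in cow 384. Without cow 384 its change was -0.05. PSME3IP1, an interaction partner of PA28 gamma and no subunit, had -0.03 (-0.09 without cow 384).

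The interferon-inducible genes were the only one of the 3 classes compared in which every gene had a change above 0: 5 of 5, with a median of 0.19. None was called. PSMB8 ran from 8.18 (median 8.54) to 8.77 prepartum and from 7.73 (median 8.87) to 9.40 postpartum, a change of 0.23 (SE 0.15, limma adjusted p = 0.42). It was higher in 8 of 11 cows, by up to 1.22 in cow 346, and lowest in cow 384 (-0.88). Its mean change was 0.14 without cow 346 and 0.35 without cow 384. The groups overlapped, and the postpartum arrays were spread more widely (SD 0.58, n = 11) than the prepartum ones (SD 0.20, n = 11).

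PSMB9 ran from 7.19 (median 7.58) to 8.08 prepartum and from 6.44 (median 7.81) to 8.37 postpartum, a change of 0.19 (SE 0.14, limma adjusted p = 0.495, higher in 8 of 11 cows). For PSMB10 the range was 7.20 (median 7.56) to 7.81 prepartum and 6.99 (median 7.71) to 8.21 postpartum, a change of 0.21 (SE 0.10, limma adjusted p = 0.281, higher in 7 of 11 cows). For PSMB9 the mean change was 0.10 without cow 346 and 0.29 without cow 384, and for PSMB10 it was 0.14 and 0.25. In all 3 genes the highest postpartum array was that of cow 346 and the lowest that of cow 384. The PA28 genes gave smaller values: PSME1 had 0.13 (SE 0.08, limma adjusted p = 0.436, higher in 8 of 11 cows) and PSME2 0.15 (SE 0.07, limma adjusted p = 0.245, higher in 9 of 11 cows). PSME2 was 1 of the 4 members with an unadjusted p under 0.05 (limma p = 0.0469), and the others were PSMA4, PSMC6 and PSMD14.

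**Figure D2:**
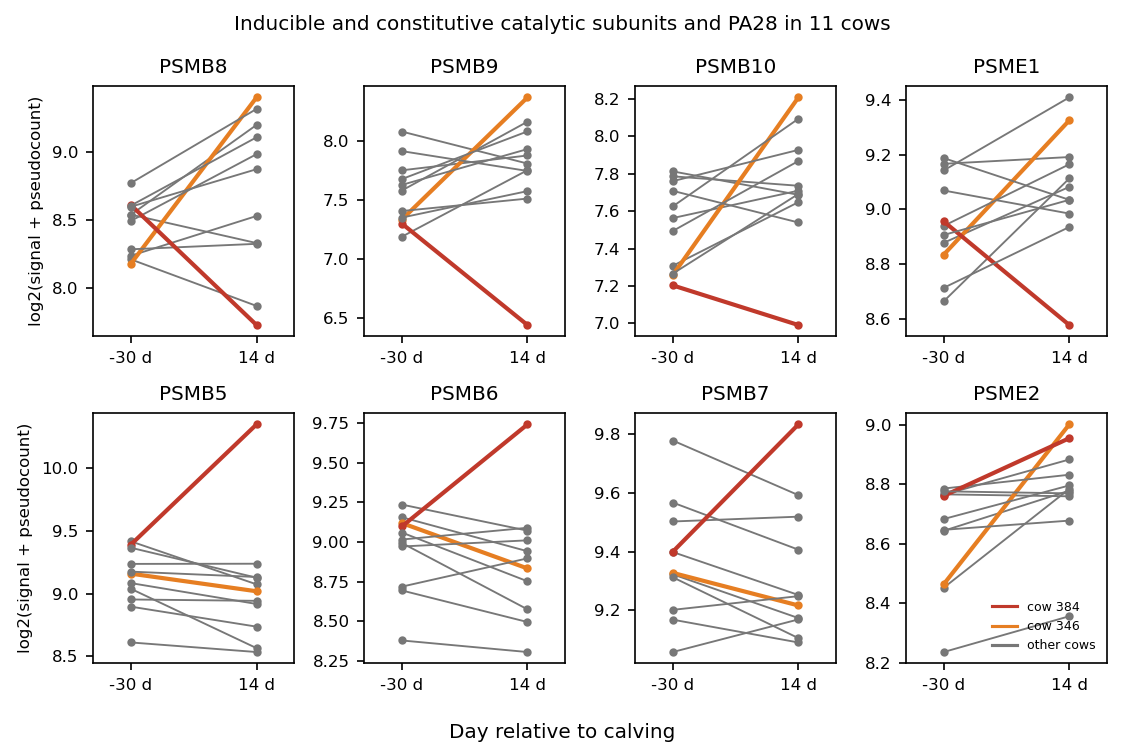
Levels of the inducible catalytic genes, PSME1, the constitutive catalytic genes and PSME2 on a log2 scale at day -30 and day 14; each line joins the arrays of 1 cow. In PSMB8, PSMB9 and PSMB10 cow 346 is higher and cow 384 lower postpartum than prepartum, and cow 384 stands highest postpartum in PSMB5, PSMB6 and PSMB7.

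A direction shared by at least 9 of 11 cows was found for 9 of the 37 genes (24.3%, against 22.5% of all genes tested). These were PSMA3, PSMA4, PSMA5, PSMB5, PSMC4, PSMC6, PSMD1 and PSMD14, all lower, and PSME2, higher. The share among proteasome genes was close to that of the array as a whole. No member had prepartum and postpartum levels that did not overlap (0 of 43).

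Class means per cow showed where the classes parted. The mean change of the 13 core genes was below 0 in 10 of 11 cows, from -0.29 (cow 347) to a value just under 0 (cow 386), and was 0.62 in cow 384. That of the 13 genes of the regulatory particle was below 0 in 9 cows, 0.03 in cow 386 and 0.88 in cow 384. The 5 inducible genes averaged above 0 in 8 cows, up to 0.85 in cow 346, near 0 in cow 338, -0.08 in cow 347 and -0.43 in cow 384. In 10 of 11 cows the inducible mean lay above the core mean and above the mean of the regulatory particle; in cow 384 the differences were -1.05 and -1.31 log2 units. Over 11 cows the inducible genes averaged 0.24 above the core (SD 0.48, n = 11 cows).

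**Figure D3:**
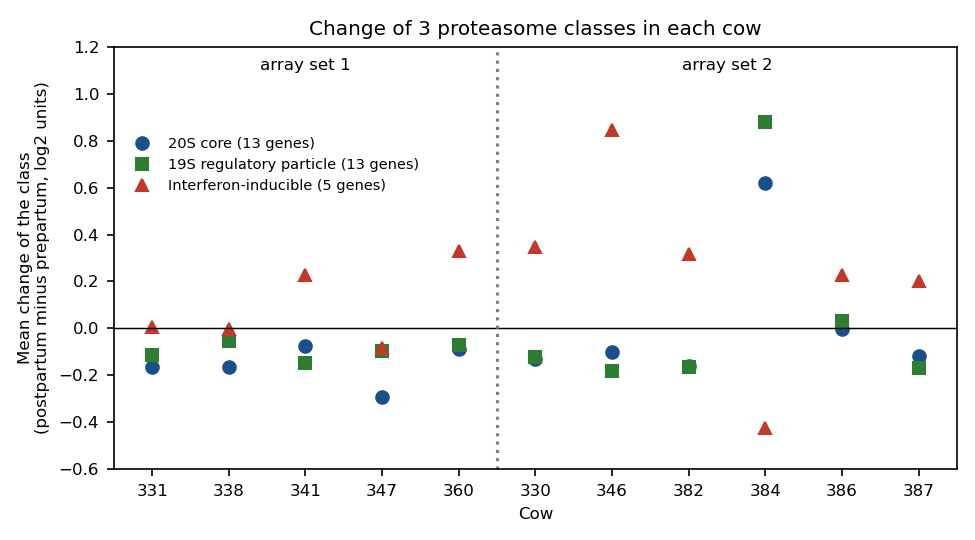
Mean change of the 20S core (13 genes), the 19S regulatory particle (13 genes) and the interferon-inducible genes (5 genes) in each cow, in log2 units, with the cows ordered by array set. Red triangles lie above the blue and green symbols in each cow but cow 384, where the order is turned.

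Without cow 384 the core and the regulatory particle drew together below 0. Of the core genes, 12 of 13 then had a change below 0 (median -0.14), and of the regulatory particle 11 of 13 (median -0.09), whereas 47.4% of all genes tested were below 0 (median 0.01). Without cows 384 and 387 the counts were 12 of 13 and 9 of 13. Cow 384 had the highest mean change in both classes (0.62 and 0.88), so leaving it out lowers these values by construction. These counts and medians thus do not support a fall. Leaving out cow 384 likewise favours calls and low unadjusted p-values of lower genes where its change was the highest, as in PSMA3, PSMC6 and PSMD14. The calls without it were these 3, all lower (6.98% of members, where 6.72% of all probe sets were called). Without cows 384 and 387 PSMD14 alone was called (2.33%, where 7.43% were). With an unadjusted p under 0.05 by limma there were 17 of 43 members (39.5%, where 23.4% of all probe sets had one) and 15 of 43 (34.9%, where 23.9% had one). The inducible genes kept 5 of 5 above 0 in both cases, with medians of 0.25 and 0.26. Their median was 0.11 without cow 346 and 0.10 in array set 1 alone. The mean change of the core was -0.06 with all cows (SD 0.24, n = 11) and -0.13 without cow 384 (SD 0.08, n = 10).

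Each inducible catalytic subunit was then set against the constitutive one that it replaces, as the difference of their changes within a cow. PSMB8 minus PSMB5 averaged 0.30 (SD 0.85, n = 11 cows, 95% interval -0.27 to 0.87, exact sign-flip p = 0.278, adjusted p = 0.278 over the 3 comparisons), and was above 0 in 8 of 11 cows. PSMB9 minus PSMB6 averaged 0.25 (SD 0.70, n = 11 cows, 95% interval -0.22 to 0.72, exact sign-flip p = 0.271, adjusted p = 0.278) and was above 0 in 9 of 11. PSMB10 minus PSMB7 averaged 0.25 (SD 0.42, n = 11 cows, 95% interval -0.03 to 0.53, exact sign-flip p = 0.0762, adjusted p = 0.229) and was above 0 in 9 of 11. The tests were two-sided, and none of the 3 differences passed at an adjusted p of 0.05.

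These results turned on cow 384. It gave -1.84, -1.50 and -0.64 for the 3 differences, in each case the lowest value, and cow 346 gave the highest in each (1.36, 1.32 and 1.06). Without cow 384 the averages were 0.51, 0.43 and 0.34 (exact sign-flip test over 10 cows, adjusted p = 0.0117, 0.00879 and 0.00879). Leaving out any other single cow gave no call. Without cows 384 and 387 the averages were 0.49, 0.42 and 0.35 (exact sign-flip test over 9 cows, adjusted p = 0.0234, 0.0176 and 0.0176). Cow 384 was the lowest in each difference and was left out with earlier results known. The p-values without it thus show how far the result rests on 1 cow, and do not support a difference. In array set 1, which holds neither cow, the averages were 0.20, 0.25 and 0.17, with 3, 4 and 4 of 5 cows above 0; in array set 2 they were 0.38, 0.26 and 0.32, with 5 of 6 above 0 in each. Without the 4 cows with raised keratins they were 0.29, 0.10 and 0.23, and no test passed.

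**Figure D4:**
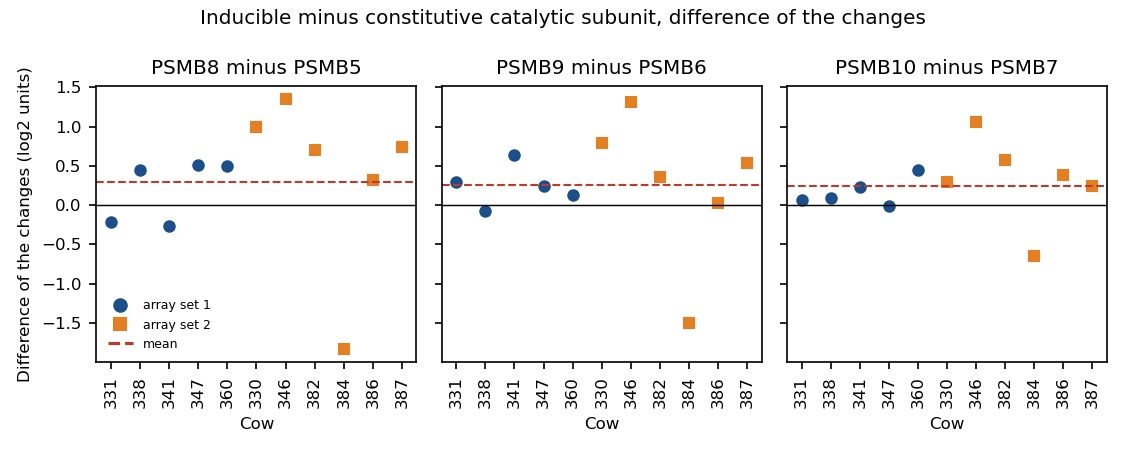
Difference of the changes of an inducible catalytic gene and the constitutive one that it replaces, in log2 units, for each cow; circles are array set 1, squares array set 2, and the dashed line is the mean of 11 cows. Cow 384 lies at -1.84, -1.50 and -0.64, and most of the other cows lie above 0.

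The postpartum array of cow 384 stood apart across the family. All 13 core genes and 11 of 13 genes of the regulatory particle were at their highest of the 22 arrays there, against 19.8% of all genes tested, and their median excess over the gene medians was 0.68 and 0.93 log2 units. PSMB8, PSMB9 and PSMB10 were at their lowest of the 22 arrays, as was PSME1, against 29.0% of all genes. On the postpartum array of cow 346, by contrast, PSMB8, PSMB9, PSMB10 and PSME2 were at their highest, as were 3.89% of all genes. Of 30 ubiquitin and proteasome partners, 21 were at their highest on the postpartum array of cow 384 too. That array of cow 384 had the highest skeletal muscle markers of the 22 (8.03), the lowest adipocyte markers (-1.76) and the lowest lymphocyte markers (-1.14).

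The arrays with raised muscle markers differed in their proteasome levels. On the prepartum array labelled cow 387, where muscle markers stood at 7.25, none of the 13 core genes and none of the 13 genes of the regulatory particle was at its highest, and the median deviations from the gene medians were -0.02 and -0.10. On the postpartum array of cow 386 (muscle markers at 3.73) they were -0.01 and -0.03. On the prepartum array of cow 384 (2.66) they were 0.22 and 0.02. With the muscle marker median as a covariate in the fit, no member was called, as without it, so that fit does not bear on muscle RNA. The part of muscle RNA in the values of cow 384 was not tested.

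**Figure D5:**
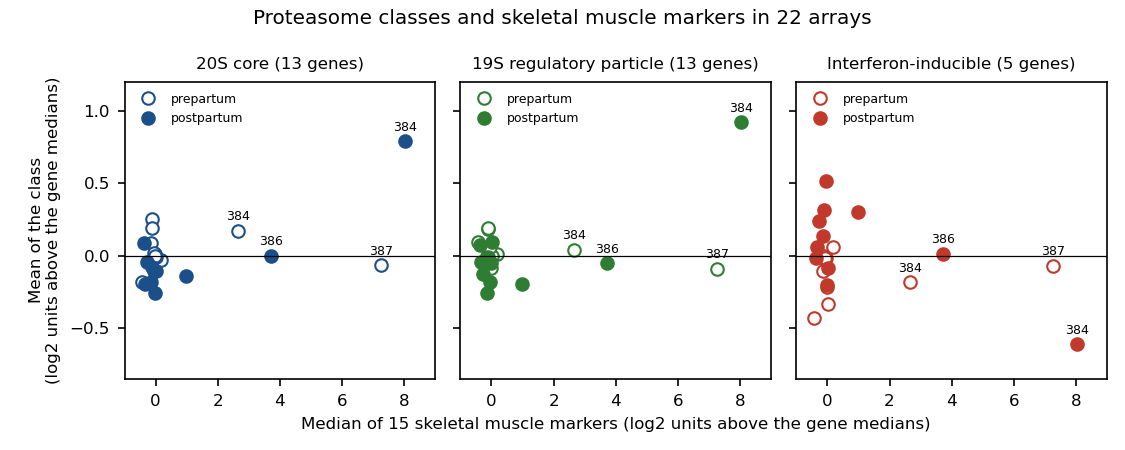
Mean level of each class on each of the 22 arrays, in log2 units above the gene medians, against the median of the 15 skeletal muscle markers; open circles are prepartum, filled circles postpartum, and the arrays with raised muscle markers are labelled by cow. The postpartum array of cow 384 lies apart in all 3 panels, whereas the prepartum array labelled cow 387 lies near 0.

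Changes of the members varied together over the 11 cows. The median correlation between pairs of core genes was 0.71 and between pairs of genes of the regulatory particle 0.74, against 0.02 over all pairs of genes tested; core with inducible genes had a median of -0.29. These values describe changes measured on the same arrays. Without cows 384 and 387 the medians within the core and the regulatory particle were 0.21 and 0.04 (n = 9 cows). Within the inducible genes the median was 0.70 with all cows and 0.62 without them.

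Among the 10 pairs of inducible genes, PSMB9 and PSME1 had r = 0.91 (Spearman rho = 0.82; permutation p = 0.00018 and 0.00344, adjusted over the 10 pairs 0.0017 and 0.0172), and r = 0.76 without the 2 cows farthest from the median (346 and 384). PSMB10 and PSME1 had r = 0.88 (rho = 0.93; permutation p = 0.00034 and 0.00018, adjusted 0.0017 and 0.0018), and 0.87 without the same cows. Of the 10 pairs, 6 passed by Pearson's r and these 2 also by Spearman's rho. For PSMB8 with PSMB9 r dropped from 0.75 to 0.15 without cows 346 and 384, for PSMB8 with PSMB10 from 0.72 to 0.33, and for PSMB8 with PSME1 from 0.67 to 0.11: these relations rest on those cows. For PSMB9 with PSMB10 it was 0.81 and 0.61. None of the 4 pairs with PSME2 passed. Within array set 2 (6 cows) PSMB8 with PSMB9 passed (r = 0.99, exact permutation p = 0.00139, adjusted p = 0.0139), and array set 1 holds too few cows.

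Markers of immune cells moved with the inducible genes in part. Lymphocyte markers (9 kept of 13 listed, 7 with a change above 0) had a list median that changed by 1.27 log2 units in cow 346 and by -0.77 in cow 384, the cows that were highest and lowest for PSMB8, PSMB9 and PSMB10. In cow 386 it changed by -0.20, where the inducible genes averaged 0.23. The summed signal of the lymphocyte markers ran from 361 to 832 prepartum and from 220 to 1545 postpartum, and no marker was at 0. Macrophage and monocyte markers (10 kept of 14, all with a change above 0) changed by 0.35 and -0.09 in the same cows and by 1.61 in cow 387, and their summed signal ran from 2242 to 5694 and from 2188 to 12192. Neutrophil markers (5 kept of 6, all with a change above 0) had their highest changes in cows 346 (2.97), 330 (2.15) and 382 (1.86), and -0.07 in cow 384. They changed by -1.35 in cow 341 and by -0.86 in cow 360, where the inducible genes averaged 0.23 and 0.33. The summed signal of the neutrophil markers ran from 422 to 2795 prepartum and from 396 to 7454 postpartum. The list median was higher postpartum in 6 of 11 cows for lymphocytes and in 6 of 11 for macrophages and monocytes. For neutrophils it was higher in 5 of 11 cows. No marker of these lists was called by limma, where 3.71% of all genes tested were. The part of these cell types in the inducible genes was not tested. Of the tissue itself, 4 of 13 adipocyte markers were called lower by limma, where 1.98% of all probe sets were, and 4 had a change above 0. Of 6 endothelial markers 2 were called higher by limma, where 1.44% of all probe sets were, and 4 had a change above 0. The part of adipocytes and endothelium in the members' changes was not tested.

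No partner of the proteasome was called either. Of 44 listed genes of assembly, ubiquitin conjugation, unfolding and transcriptional control, 30 were kept; 13 had a change above 0 and 17 below, with a median of -0.03, and 3 had an unadjusted p under 0.05 by limma. Of all genes tested 3.71% were called, 20.8% had an unadjusted p under 0.05 and 52.6% had a change above 0. NFE2L1, the transcription factor that drives proteasome genes when the protease is inhibited, had 0.21 (SE 0.16, limma adjusted p = 0.513). POMP, which matures the core, had -0.04, and the assembly chaperone PSMG1 0.14. The largest value was that of FBXO32, the muscle atrophy ubiquitin ligase atrogin-1, at 0.89 (SE 0.34, limma adjusted p = 0.163, higher in 10 of 11 cows). It is also a gene of skeletal muscle, and the part of muscle RNA in its value was not tested.

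Genes that act with the immunoproteasome in antigen processing and the interferon response had a median of 0.08 over the 19 kept of 28 listed, with 13 above 0, none called and 5 at an unadjusted p under 0.05 by limma, beside the same shares of all genes (3.71%, 20.8% and 52.6% above 0). TAP1 and TAP2, the peptide transporter, both had 0.12 (limma adjusted p = 0.614 and 0.698), and B2M, the light chain of MHC class I, had 0.17 (limma adjusted p = 0.289, higher in 9 of 11 cows). UBD, an interferon-induced ubiquitin-like modifier that targets proteins to the proteasome, had the largest value at 0.74 (SE 0.29, limma adjusted p = 0.169, higher in 9 of 11 cows). Of the 19 genes 6 were below 0, and UBE2L6 had the lowest value at -0.35 (SE 0.13, limma adjusted p = 0.149, lower in 8 of 11 cows). The lowest adjusted p was that of calnexin, CANX, a chaperone of class I folding (-0.26, SE 0.08, limma adjusted p = 0.0878, lower in 10 of 11 cows).

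Cow 384 also weighed on the comparison of the array sets. The change in array set 2 exceeded that in array set 1 for 32 of 37 genes, with a median difference of 0.14, where it did so for 49.5% of all genes tested; array set 2 holds cows 384, 386 and 387. Without cow 384 it did so for 22 of 37 genes, with a median difference of 0.03, and for 52.2% of all genes. For the core the class mean was below 0 in 5 of 5 cows of set 1 (mean -0.16, SD 0.09, n = 5) and in 5 of 6 of set 2 (mean 0.02, SD 0.30, n = 6, and -0.10 without cow 384). The regulatory particle averaged -0.10 in set 1 (SD 0.04, n = 5) and 0.05 in set 2 (SD 0.42, n = 6), and -0.12 in set 2 without cow 384. The inducible genes averaged 0.10 in set 1 (SD 0.17, n = 5) and 0.25 in set 2 (SD 0.41, n = 6), and 0.39 in set 2 without cow 384. No member passed limma's test of the difference between the sets, nor did any probe set of the array (0%). By that limma test 1 member had an unadjusted p under 0.05, against 516 of 14410 probe sets (3.58%): it was PSMD6, at -0.32 in set 1 and 0.13 in set 2 (limma p = 0.0359). Fitted alone, array set 1 had 0 members called by limma (0.479% of all probe sets) and 9 at an unadjusted p under 0.05 (16.2%); array set 2 had 0 called and 0 at an unadjusted p under 0.05 (10.6%).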

How the data were processed

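Each of the 22 arrays was read as 1 signal per probe set, made with MAS5 per the submitters' processing notes. MAS5 settings and a genome build were not found in the labels. The table that the authors deposited holds these intensities on a linear scale. Every array had a mean of 125 once 2% of the values at either end were removed, which shows scaling by array.

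Control probe sets (112 of 24128) were left out. Values were taken as log2(signal + 7.78), with 7.78 set from the 20th percentile of each array (median of 22); such changes understate those of dim genes. Probe sets with a mean at or above the 40th percentile were kept (14410). Symbols came from the array annotation, which gave 1 symbol to 13292 bovine probe sets, several to 86 and none to 10638; 13263 were updated through the Entrez identifier from RefSeq's ARS-UCD2.0 table. Of several kept probe sets the one with the highest mean stands for the gene. limma 3.58.1 (R 4.3.3) tested the postpartum effect with a term for each cow and a variance trend on intensity, and p-values were adjusted over all kept probe sets by Benjamini-Hochberg; 95% intervals come from the same fit. The difference between array sets was fitted as an interaction. Differences between catalytic subunits were tested over all 2048 sign flips of 11 cows, and correlations with 100000 permutations; their intervals use the t distribution. The fits were tried on simulated data over 14410 probe sets, with independent normal noise of each probe set's own residual SD. Correlation between genes and arrays that stand apart were not simulated. There the postpartum fit recovered 91% of 100 changes of 1 log2 unit and 56% of 100 changes of 0.5, with 10 false calls among 157. The interaction fit recovered 90% of changes of 2 log2 units and 44% of changes of 1. Single arrays have no read depth, and their number limits the precision.

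Cows are paired by the number in the titles and by the series design, which describes paired sampling. Same-cow arrays deviated together (r from 0.18 to 0.43) except those labelled cow 387 (-0.09). Members, gene lists and alternatives were chosen with earlier results of these data known. Named genes were the inducible and constitutive catalytic genes, the 2 highest and 2 lowest of each role, those whose probe sets differ in sign, and fixed genes of 2 related lists. PSMA3, PSMD1, PSMD5, PSMD10 and PSMF1, members outside that rule, and FBXO32, UBD, UBE2L6 and CANX were named after their values were seen. The alternatives changed the cow term, the scaling, the pseudocount, the low-signal limit, the variance trend, array weights, a muscle covariate, the probe set per gene, the threshold or the cows and array sets used. Python 3.11.15 with matplotlib 3.10.9 drew the plots.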

Additional observations from a re-analysis of the deposited data

Results flagged for a closer look

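Within the array sets (5 and 6 cows), 66 sets of changes per cow were checked for a cow that stands apart from the others, and 11 had one, all in array set 2. Chance alone gives about 1 in 20 for a single set. The sets share arrays and genes, so their count is not a test against that share. Cow 384 was the one in 10 of the 11. Its mean change of the 20S core was 0.62, where the nearest other cow of the set lay just under 0, and that of the 19S regulatory particle was 0.88, where the nearest lay at 0.03. PSMB8 minus PSMB5 was -1.84 in cow 384, and the nearest other value was 0.32. Single genes in which cow 384 stood apart were PSMA6 (0.78), PSMB5 (0.96), PSMC2 (1.15), PSMC4 (0.85), PSMD4 (1.23), PSMD6 (0.94) and PSME4 (2.36). Cow 346 stood apart for PSME2, with a change of 0.54.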

How the results depend on the processing

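Against 0 member probe sets called (3.43% of all probe sets), 2 passed with array weights (PSMC6 and PSMD14, 4.65% of members, where 7.47% of all probe sets passed). Without cows 384 and 387 it was 1 (PSMD14, 2.33%, where 7.43% passed). At an adjusted p under 0.10 it was 1 (PSMD14), and no share over all probe sets is given here for that threshold. Without single cows 0 to 3 passed: 3 without cow 384 (6.98%, where 6.72% passed) and 1 without cow 387 (2.33%, where 4.31% passed). Gene by gene the counts were the same (2, 1, 1 and 0 to 3). With no replicate block, 0 were called, as with the block as a random effect, quantile normalization, other pseudocounts and filters, no intensity trend, the muscle covariate and each array set alone. The unadjusted count by limma was 4 in the main fit (9.30%, where 19.8% of all probe sets had one). It was 2 with no replicate block, for which no share over all probe sets is given here. The difference between array sets called 0 members in every alternative run. Without cows 384 and 387 the exact sign-flip test called PSMB8 minus PSMB5 (0.49), PSMB9 minus PSMB6 (0.42) and PSMB10 minus PSMB7 (0.35). Without single cows these ranged from 0.19 to 0.51, 0.15 to 0.43 and 0.17 to 0.34, and passed without cow 384 only. That cow was the lowest in each, so passes without it do not support a difference. In each array set alone 5 or 6 cows allow few sign flips, and none of the 3 passed. With no replicate block the adjusted permutation p of each was 0.377. Of 10 pairs of inducible genes 6 were correlated. Array set 2 alone gave 1 such pair, and 3 were found when cows 384 and 387 were both left out. Leaving out single cows gave 2 (cow 346) to 6 pairs, and 3 for cow 384; array set 1 has too few cows. Over all alternatives run the median of the core ranged from -0.14 to -0.01, that of the regulatory particle from -0.09 (without cow 384) to 0.08 (array set 2 alone), and that of the inducible genes from 0.10 (array set 1 alone) to 0.26 (without cows 384 and 387). Of the 27 named genes 13 kept their sign in all alternatives. Why the values move with these cows was not tested.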
